A study of Homo sapiens with 12 samples.

Results

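The genes described here are 8 core genes of the FAS and TRAIL death pathway, measured in Jurkat cells, a line from a human T cell leukaemia. They were taken by gene symbol, in a choice made with earlier results of these data known: FAS, TNFRSF10A, TNFRSF10B, FADD, CASP8, CASP10, CFLAR and CASP9. They are 8 of the 19775 genes named on the arrays and are read by 37 of the 41091 probe sets that carry a single gene symbol.

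The cells had been transduced with a construct encoding the microRNA miR-21 or with the matching control vector, and were cultured in RPMI with 10% fetal bovine serum. From each kind of cell, RNA was recovered by immunoprecipitation (IP) with an antibody to AGO2, by IP with control IgG, and as Total RNA. The 6 groups were thus AGO2 IP of miR-21 cells, AGO2 IP of control vector cells, IgG IP of miR-21 cells, IgG IP of control vector cells, Total RNA of miR-21 cells and Total RNA of control vector cells, with 2 replicates each on 12 Affymetrix arrays. Label was made from 100 ng of IP RNA but from 1 ug of Total RNA, so the amount of RNA cannot be told apart from the fraction. The labels do not say whether the replicates were separate cultures, whether the cells were 1 clone, or which promoter drove miR-21; p-values therefore measure the spread between these arrays only.

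FAS and the TRAIL receptors encoded by TNFRSF10A (DR4) and TNFRSF10B (DR5) are membrane proteins whose intracellular death domains recruit the adaptor FADD when a ligand binds. FADD in turn gathers caspase-8 and caspase-10, the initiator proteases of this route, and the CFLAR protein (FLIP), a relative of caspase-8 that limits its activation. Caspase-9 is the initiator of the mitochondrial route, which caspase-8 can also engage by cutting BID. AGO2 is an Argonaute protein that holds microRNAs and the mRNAs they pair with. An AGO2 IP recovers such mRNAs, and the IgG IP is its control.

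The microRNA that the construct encodes is given with the 1 other human microRNA of the RefSeq table (GRCh38.p14) that shares its seed, the bases that lead target pairing; capitals mark the seed, bases 2 to 8. Of 2545 mature human microRNAs in that table, 2 carry this seed.
hsa-miR-21-5p: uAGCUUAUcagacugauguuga
hsa-miR-590-5p: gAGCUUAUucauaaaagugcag
The mature miR-21-5p has 22 bases and lies on the plus strand at chr17:59841273-59841294, and miR-590-5p lies on the plus strand at chr7:74191213-74191234. FAS is on chromosome 10, FADD on 11, CASP9 on 1, and TNFRSF10A and TNFRSF10B are both on 8. CFLAR, CASP10 and CASP8 are neighbours on chromosome 2, in that order, with no other protein-coding gene between them in the RefSeq table.

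All values are the authors' RMA values, on the log2 scale, and a difference of 1 is a doubling. Mean array values lay between 4.39 and 4.41 in replicate 1 and between 5.26 and 5.27 in replicate 2, so a level is compared only within a replicate. The same-numbered arrays deviated together from their group means in all 15 pairs of groups (r between 0.468 and 0.873), and values with replicate number as a block are therefore given beside those without it. The IP arrays of replicate 2 stood apart from their labels: AGO2 IP and IgG IP of control vector cells differed by an SD of only 0.184 over probe sets, and those of miR-21 cells by 0.292, whereas the IgG IP arrays of miR-21 and control vector cells differed by 0.619. In replicate 1, AGO2 IP and IgG IP differed by an SD of 0.791 in miR-21 cells and 0.828 in control vector cells. The AGO2 IP array of control vector cells and the IgG IP array of miR-21 cells in replicate 2 are called the doubted arrays here. For the 8 genes, the main results that rest on them are given with that pair and, from the fits, without it. Those for further genes of the pathway are given with that pair only. The SDs alone do not tell this pair from the opposite one, AGO2 IP of miR-21 cells and IgG IP of control vector cells. The opposite pair was not left out together. Without the doubted arrays no pair of miR-21 and control vector arrays is left in the IPs of replicate 2. The construct is then mixed with the antibody in the IPs of that replicate. Of 9 T cell markers named on the arrays, 9 passed the filter described next, among them CD3D at 11.8 to 12.9 and LCK at 10.4 to 12.4. Summed over the T cell list they came to 73.6 to 79.6 in AGO2 IP, 74.6 to 80.9 in IgG IP and 76.6 to 84.9 in Total RNA. Each range spans both replicates, so their overlap does not compare the fractions within a replicate. The mean over the arrays of a fraction was lower in AGO2 IP than in Total RNA for all 9 except CD7. ZAP70 was at 7.73 against 8.73, and CD7 at 5.66 against 5.55. Of the other lists, 1 of 2 B cell markers passed (CD79A at 5.89 to 7.34; MS4A1 did not), 1 of 4 monocyte markers (CSF1R at 3.84 to 4.88; CD14, LYZ and FCGR1A did not), 2 of 3 epithelial markers (KRT8 at 4.47 to 5.05 and KRT18 at 4.98 to 7.27; EPCAM did not) and the 1 erythroid marker named (HBB at 4.65 to 6.46).

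Of the probe sets that name 1 gene alone, the brightest on average stood for that gene and is called its leading probe set here. Probe sets with a 12-array mean of at least 4.02, the median of the non-control probe sets, were tested. All 8 leading probe sets passed, as did 12824 genes in all, and 19 of the 37 probe sets of the 8 genes passed while 18 did not. Called means a limma p under 0.05 after Benjamini-Hochberg adjustment across all tested genes.

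**Figure D1:**
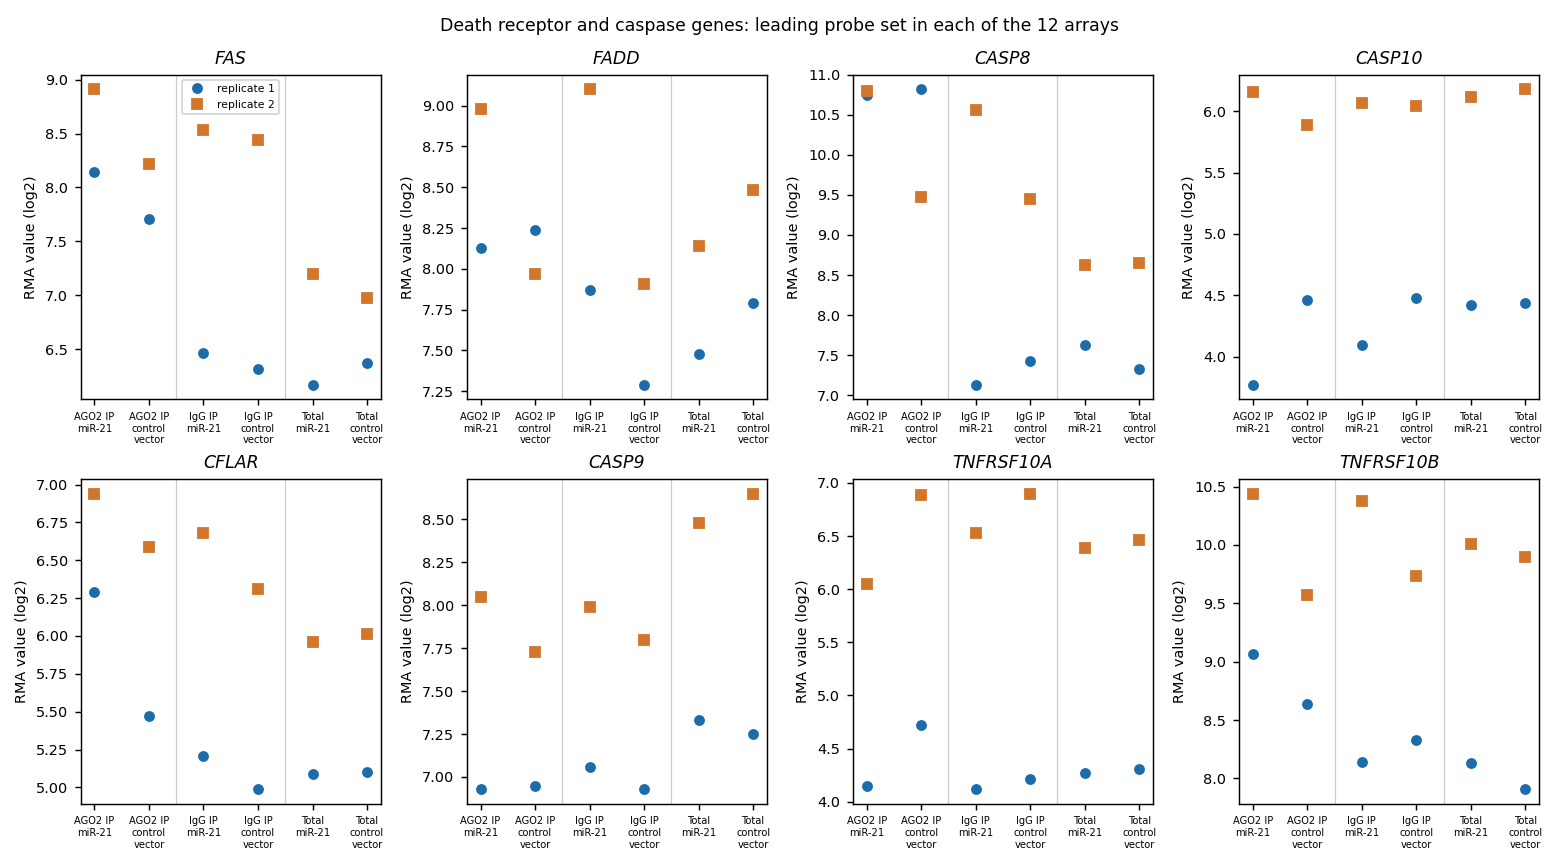
RMA values (log2) of the leading probe set of each of the 8 genes, 1 panel a gene; every point is 1 array, blue circles for replicate 1 and orange squares for replicate 2, and each panel has its own vertical axis. FAS, CASP8 and CFLAR stood higher in AGO2 IP than in Total RNA within each replicate, CASP9 lower.

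By their leading probe sets, FAS, CASP8 and CFLAR were higher in AGO2 IP than in Total RNA in both replicates and with both constructs. CASP9 was lower in all 4 pairs of arrays. Other probe sets of CFLAR did not all go that way, as given below. The size was largest for CASP8, at 5.29-fold with replicate number as a block, followed by FAS at 2.97-fold and CFLAR at 1.72-fold. These 3 genes passed the test with the block, FADD, CASP10, CASP9, TNFRSF10A and TNFRSF10B did not, and none passed without it. The comparison is between RNA fractions of the same kinds of cells. Within a fraction of bulk RNA, the share of cells with a transcript and its amount per cell cannot be told apart. Of the 12824 genes, 16.0% were called with the block, 4.71% higher and 11.3% lower, so 3 of 8 higher stands against a background of 4.71%. Without the block, 0% were called by limma, and 1230 genes, 2 of the 8 among them, had an unadjusted p under 0.05. The median difference was 0.40 over the 8 genes and -0.05 over all genes tested.

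FAS encodes the receptor for FAS ligand. Its leading probe set, 204780_s_at, read 8.14 and 8.91 in AGO2 IP of miR-21 cells (replicates 1 and 2) and 7.71 and 8.22 in AGO2 IP of control vector cells. In Total RNA it read 6.17 and 7.20 in miR-21 cells and 6.37 and 6.97 in control vector cells. Each AGO2 IP array was above both Total RNA arrays of its replicate. AGO2 IP exceeded Total RNA by 1.98 and 1.71 in miR-21 cells and by 1.34 and 1.25 in control vector cells. With the block the log2 difference was 1.57 ± 0.31 (SE), with a 95% confidence interval of 0.86 to 2.28 and a limma adjusted p of 0.0186; without the block that adjusted p was 0.462. Within replicate 1 alone it was 1.66 (adjusted p = 0.00276) and within replicate 2 alone 1.48 (adjusted p = 0.00452), in limma fits of 6 arrays with fraction and construct as terms. Within replicate 1, 36.3% of all genes were called and 4 of the 8 members, and within replicate 2, 35.2% and again 4 of 8.

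CASP8 encodes caspase-8, the protease that FADD brings to the receptor. Its leading probe set, 213373_s_at, read 10.75 and 10.80 in AGO2 IP of miR-21 cells and 10.82 and 9.47 in AGO2 IP of control vector cells. In Total RNA it read 7.62 and 8.63 in miR-21 cells and 7.32 and 8.65 in control vector cells. AGO2 IP was above Total RNA in every pair, but the gap varied more than that of FAS: 3.12 and 2.17 in miR-21 cells, 3.50 and 0.82 in control vector cells. The smallest gap belongs to the doubted AGO2 IP array of control vector cells in replicate 2. With the block the log2 difference was 2.40 ± 0.63 (limma adjusted p = 0.0346), the 87th highest of the 12824 genes, and without the block its adjusted p was 0.394. Without the pair of doubted arrays it was 3.02 (limma adjusted p = 0.00339), and FAS then stood at 1.72 and CFLAR at 0.74, all 3 still called.

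CFLAR, the inhibitor, differed less. Its leading probe set, 210563_x_at, read 6.29 and 6.94 in AGO2 IP of miR-21 cells and 5.47 and 6.59 in AGO2 IP of control vector cells. In Total RNA it read 5.09 and 5.96 in miR-21 cells and 5.10 and 6.01 in control vector cells. The AGO2 IP arrays again lay above the Total RNA arrays of their replicate, by 1.20 and 0.98 in miR-21 cells and by 0.37 and 0.58 in control vector cells. With the block the log2 difference was 0.78 ± 0.20 (limma adjusted p = 0.0315); without it the adjusted p was 0.823.

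CASP9 moved the other way in each pair and missed the threshold. Its leading probe set, 203984_s_at, read 6.93 and 8.05 in AGO2 IP of miR-21 cells and 6.95 and 7.73 in AGO2 IP of control vector cells, against 7.33 and 8.48 in Total RNA of miR-21 cells and 7.25 and 8.65 in Total RNA of control vector cells. The log2 difference with the block was -0.51 ± 0.18 (limma adjusted p = 0.0873). Within replicate 2 alone it was called, at -0.68 (limma adjusted p = 0.0475), where 19.4% of genes were called lower. Of all genes tested, 21.0% had AGO2 IP arrays below the Total RNA arrays in each replicate, as CASP9 had, and 11.4% had them above, as FAS, CASP8 and CFLAR had.

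The other receptors and the adaptor did not pass the test with the block. TNFRSF10B read 9.07 and 10.44 in AGO2 IP of miR-21 cells and 8.64 and 9.57 in AGO2 IP of control vector cells, against 8.13 and 10.01 in Total RNA of miR-21 cells and 7.91 and 9.90 in Total RNA of control vector cells. In replicate 1 the AGO2 IP arrays lay above Total RNA, with a difference of 0.83 that was called within that replicate (limma adjusted p = 0.0232, where 13.0% of genes were called higher). In replicate 2 the groups overlapped, and with the block the log2 difference was 0.44 ± 0.24 (limma adjusted p = 0.249). TNFRSF10A read 4.15 and 6.05 in AGO2 IP of miR-21 cells and 4.72 and 6.89 in AGO2 IP of control vector cells, against 4.27 and 6.39 in Total RNA of miR-21 cells and 4.31 and 6.46 in Total RNA of control vector cells. Its AGO2 IP arrays lay on either side of Total RNA, with a log2 difference of 0.10 ± 0.19. FADD read 8.13 and 8.98 in AGO2 IP of miR-21 cells and 8.24 and 7.97 in AGO2 IP of control vector cells, against 7.48 and 8.14 in Total RNA of miR-21 cells and 7.79 and 8.48 in Total RNA of control vector cells. It was above Total RNA in 3 of 4 pairs, with a log2 difference of 0.36 ± 0.24. CASP10, the close relative of CASP8, read 3.77 and 6.16 in AGO2 IP of miR-21 cells and 4.46 and 5.89 in AGO2 IP of control vector cells, against 4.42 and 6.12 in Total RNA of miR-21 cells and 4.44 and 6.18 in Total RNA of control vector cells. Its log2 difference was -0.22 ± 0.21, and in replicate 1 its values lay near the filter.

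**Figure D2:**
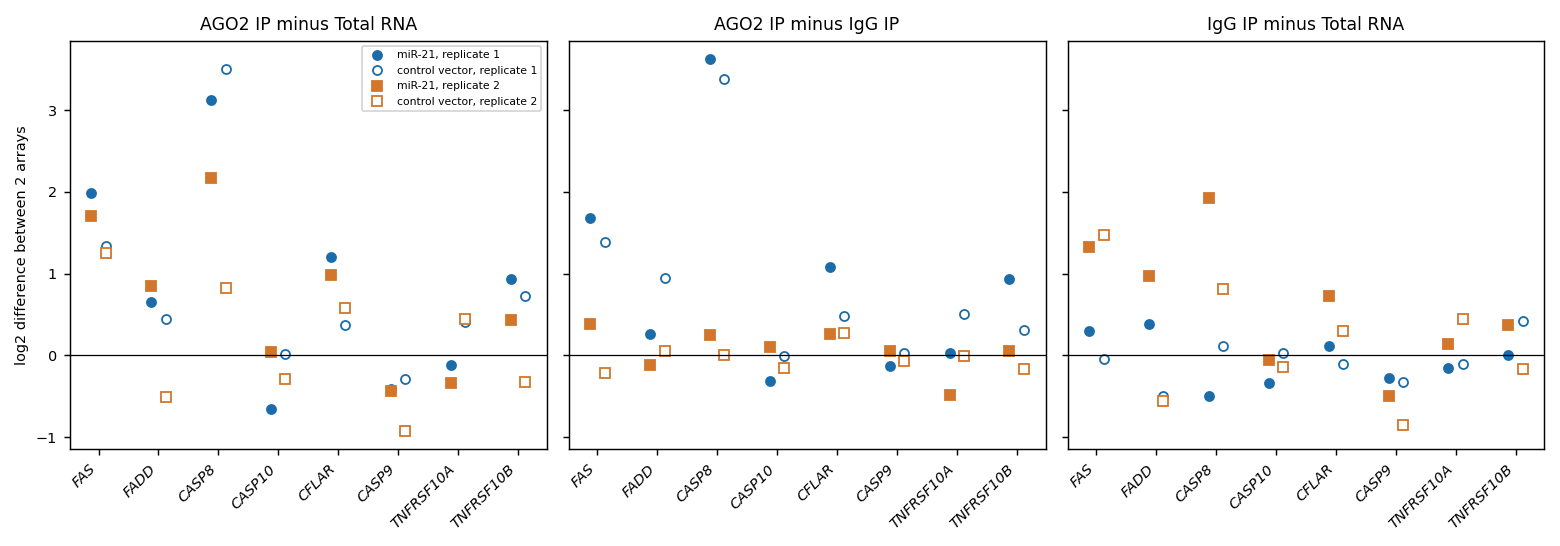
Differences between fractions (log2) for the leading probe set of each gene, from left to right AGO2 IP minus Total RNA, AGO2 IP minus IgG IP and IgG IP minus Total RNA. Each point is 1 pair of arrays of the same replicate and construct, filled for miR-21 and open for control vector, blue circles for replicate 1 and orange squares for replicate 2. In the middle panel CASP8 lay at 3.62 and 3.38 in replicate 1 but at 0.25 and 0.01 in replicate 2.

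The calls rested on few arrays. With the block, leaving out 1 array at a time took the members called to 0 without the AGO2 IP array of miR-21 cells in either replicate and without either Total RNA array of replicate 2. FAS was the only member called without either Total RNA array of replicate 1 or the AGO2 IP array of control vector cells of replicate 1, and FAS, CASP8 and CFLAR were called without any of the other arrays. Over all genes these fits called between 2 and 3051, the fewest without the AGO2 IP array of miR-21 cells of replicate 2 and the most without that of control vector cells of replicate 2. Across them the log2 difference lay between 1.37 and 1.77 for FAS and between 1.67 and 3.13 for CASP8.

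The genes other than FADD had further probe sets, 29 in all over 7 genes, and these did not always read alike. Tested one by one in a fit chosen after the data were seen, 5 of the 19 tested probe sets of the 8 genes were higher in AGO2 IP than in Total RNA with the block and 0 were lower, where 3.89% of all 23123 probe sets tested were called higher. FAS had 4 tested probe sets, all higher on average: 204780_s_at by 1.57 and 216252_x_at by 1.64 were called (limma adjusted p = 0.0197 and 0.0317), while 215719_x_at at 1.42 and 204781_s_at at 0.48 were not. Both tested CASP8 probe sets were called, 213373_s_at at 2.40 and 207686_s_at at 1.93 (limma adjusted p = 0.0398 and 0.0354). The 2 tested probe sets of CASP8 and 3 of the 4 of FAS thus gave differences of 1.42 or more.

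CFLAR, which makes long and short splice forms, was read less evenly. Of its 14 probe sets 5 were tested: 210563_x_at at 0.78 was called, 209939_x_at at 0.70 was not (limma adjusted p = 0.0569), and 237367_x_at, 211316_x_at and 214486_x_at gave 0.03, -0.32 and -0.13. With the mean of all its probe sets in place of the leading one, CFLAR gave 0.05 (limma adjusted p = 0.858), while FAS gave 1.11 and CASP8 gave 1.59 and both were still called. Within replicate 2 alone, 210563_x_at was called higher at 0.78 and 211316_x_at lower at -0.76 (limma adjusted p = 0.0348 and 0.0285), so CFLAR probe sets were called in opposite directions. With the block, the call on CFLAR holds for its leading probe set only. The second CASP9 probe set tested, 210775_x_at, gave -0.23, and the other tested probe sets of TNFRSF10B gave 0.08 and 0.17. CASP10 and TNFRSF10A each had 1 tested probe set, of 4 and 3 in all.

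**Figure D3:**
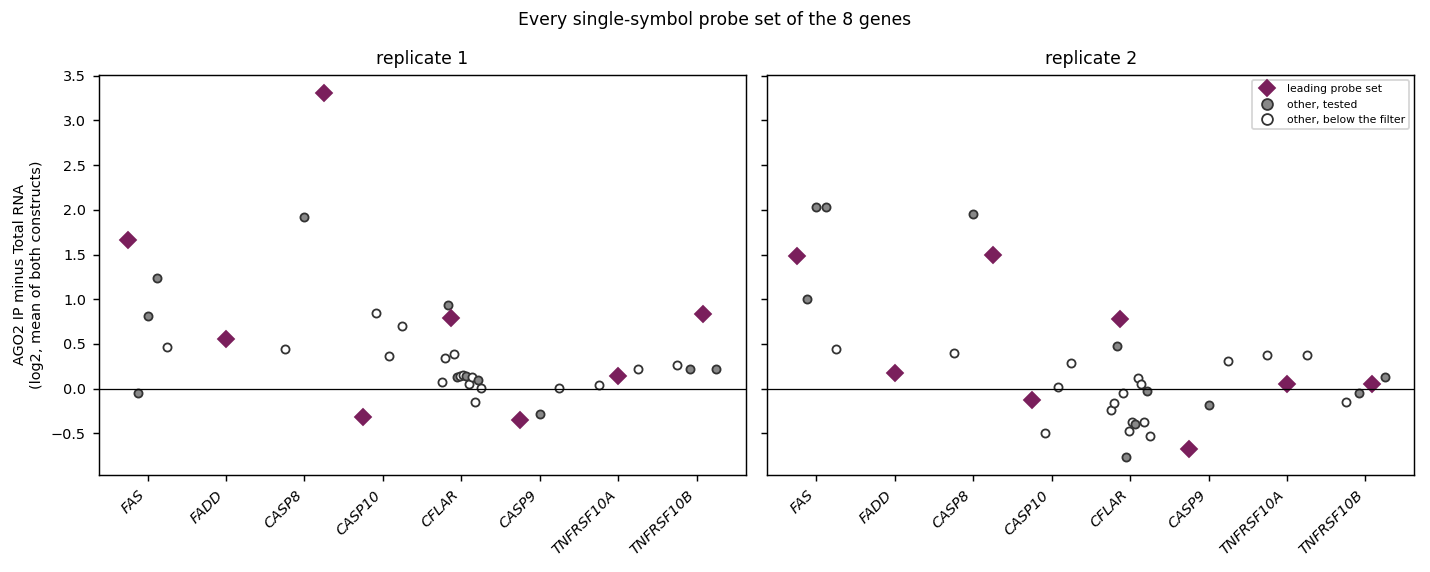
AGO2 IP minus Total RNA (log2, mean of both constructs) for every single-symbol probe set of the 8 genes, with 1 panel a replicate. Diamonds are leading probe sets, grey circles other tested probe sets and open circles probe sets below the filter. The tested probe sets of CASP8 and 3 of the 4 of FAS lie above 0 in both replicates, and those of CFLAR on either side of 0 in replicate 2.

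Against the IgG IP, which measures what the IP recovers without the AGO2 antibody, no gene of the 8 was called, and neither was any other gene: 0% of 12824 by limma, with and without the block, with 663 and 29 genes at an unadjusted p under 0.05. With the block the log2 difference was 1.81 ± 0.63 for CASP8 (limma adjusted p = 0.819), 0.81 ± 0.31 for FAS and 0.53 ± 0.20 for CFLAR, and between -0.09 and 0.28 for the other 5. CASP8 was 37th highest of all genes tested.

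The replicates differed in this comparison. In IgG IP, CASP8 read 7.13 and 10.56 in miR-21 cells and 7.43 and 9.45 in control vector cells; the replicate 1 arrays sat at the level of Total RNA and the replicate 2 arrays at the level of AGO2 IP. FAS in IgG IP read 6.46 and 8.53 in miR-21 cells and 6.32 and 8.44 in control vector cells, with the same arrangement. CFLAR in IgG IP read 5.21 and 6.68 in miR-21 cells and 4.99 and 6.31 in control vector cells, where replicate 2 again lay nearer to AGO2 IP. Within replicate 1, FAS at 1.53 and CASP8 at 3.50 were called higher in AGO2 IP than in IgG IP (limma adjusted p = 0.00482 and 0.000353), with 24.0% of genes called and 12.5% called higher. CFLAR at 0.78 was not called there (limma adjusted p = 0.0575). Within replicate 2, FAS at 0.08, CASP8 at 0.13 and CFLAR at 0.27 were not called, nor was any gene. For CASP8 the doubted pair holds the lower AGO2 IP reading of replicate 2, 9.47, and the higher IgG IP reading, 10.56. Without the pair of doubted arrays, the log2 difference with the block was 3.01 for CASP8 and 1.19 for FAS. The pair was picked from the likeness of the IP arrays in replicate 2, so this fit is no independent test. Without the opposite pair, a fit that was not run, the readings 9.47 and 10.56 of CASP8 would remain, with AGO2 IP the lower.

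The leading probe sets of FADD and TNFRSF10B also showed a gap to IgG IP in replicate 1, and neither was called there. FADD in IgG IP read 7.87 and 9.10 in miR-21 cells and 7.29 and 7.91 in control vector cells, which put AGO2 IP above IgG IP by 0.26 and 0.95 in replicate 1 and at -0.12 and 0.05 from it in replicate 2 (miR-21 cells first). TNFRSF10B in IgG IP read 8.14 and 10.38 in miR-21 cells and 8.33 and 9.73 in control vector cells, which put AGO2 IP above it by 0.93 and 0.31 in replicate 1 and at 0.06 and -0.16 in replicate 2. Its other tested probe sets gave -0.18 and 0.39 (209294_x_at) and -0.04 and 0.12 (210405_x_at) in replicate 1. None of the 8 genes had AGO2 IP arrays apart from the IgG IP arrays in both replicates, against 1.23% of genes that lay apart higher and 3.90% lower. CASP9 in IgG IP read 7.06 and 7.99 in miR-21 cells and 6.93 and 7.80 in control vector cells, and differed from AGO2 IP by at most 0.13 in any pair.

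IgG IP against Total RNA gave the background of the IP itself. No member was called with the block, where 1.92% of genes were called, 0.296% higher and 1.62% lower; without it 0% were called by limma and 437 genes had an unadjusted p under 0.05. With the block FAS stood at 0.76 ± 0.31 (limma adjusted p = 0.221), CASP8 at 0.59 ± 0.63 and CASP9 at -0.48 ± 0.18 (limma adjusted p = 0.186). The CASP9 value was close to the -0.51 it had in AGO2 IP, and its IgG IP arrays lay below Total RNA in each replicate, as they did for 16.5% of genes. Within replicate 2, FAS at 1.40 and CASP8 at 1.37 were called higher in IgG IP than in Total RNA (limma adjusted p = 0.00608 and 0.0228), with 31.3% of genes called and 14.7% called higher. Within replicate 1, FAS at 0.13 and CASP8 at -0.19 were not called, where 3.77% of genes were. Without the pair of doubted arrays, FAS was at 0.53 and CASP8 at 0.01 with the block. Tested one by one with the block, 0 of the 19 member probe sets were called, where 2.59% of all probe sets were.

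Signs of RNA quality differed between these arrays, for ACTB not in the same direction in both replicates. The gap between the 3' and 5' probe sets of ACTB in replicate 1 was 1.97 and 4.0 for AGO2 IP, 2.08 and 2.18 for IgG IP and 1.35 and 1.38 for Total RNA (miR-21 cells, then control vector cells). For replicate 2 it was 2.08 and 2.58 in AGO2 IP, 3.48 and 2.57 with IgG, and 3.18 and 3.53 without an IP. The same gap for GAPDH was larger in every IP array than in the Total RNA arrays of its replicate. In replicate 1 it was 0.349 and 1.95 for AGO2 IP, 0.439 and 0.464 for IgG IP and 0.139 and 0.222 for Total RNA. In replicate 2 it was 1.02 and 1.05 for AGO2 IP, 1.6 and 1.14 for IgG IP and 0.575 and 0.713 for Total RNA. The part of these gaps in the differences of FAS, CASP8, CFLAR and CASP9 was not tested.

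miR-21 cells were also compared with control vector cells. No member was called in AGO2 IP, IgG IP, Total RNA or the mean of the 3 fractions, and 0% of the 12824 genes were called by limma in any of them, with or without the block. Genes with an unadjusted p under 0.05 numbered 353 in AGO2 IP, 123 in IgG IP and 3 in Total RNA with the block, and 11, 4 and 0 without it. The limma adjusted p was 1.0 for each of the 8 genes in each fraction with the block. Without the pair of doubted arrays 0 genes were called in any of these comparisons, with 1086, 154 and 5 at an unadjusted p under 0.05.

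In AGO2 IP, FAS was higher in miR-21 cells than in control vector cells by 0.44 in replicate 1 and 0.68 in replicate 2, CFLAR by 0.82 and 0.35, and TNFRSF10B by 0.43 and 0.86. These 3 of 8 genes lay above in both pairs, as did 29.5% of all genes. The 95% confidence interval with the block was -0.44 to 1.56 for FAS, -0.05 to 1.22 for CFLAR and -0.13 to 1.42 for TNFRSF10B, so a doubling lay within each interval. CASP8 gave -0.07 in replicate 1 and 1.34 in replicate 2, with an interval of -1.37 to 2.64. Without the pair of doubted arrays the fitted difference was 0.26 for FAS, 0.68 for CFLAR, 0.28 for TNFRSF10B and -0.59 for CASP8, none of them called. The AGO2 IP array of control vector cells in replicate 1 had the largest 3' to 5' gap of ACTB, 4.0 against 1.97 in miR-21 cells, and its part in these differences was not tested.

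TNFRSF10A, which encodes DR4, was the member whose leading probe set lay below control vector cells in all 6 pairs: the differences were -0.57 and -0.84 in AGO2 IP, -0.09 and -0.37 in IgG IP, and in Total RNA -0.03 and -0.07 (replicates 1 and 2). Of all genes tested, 1.40% lay below in all 6. Both replicate 2 IP pairs hold a doubted array; its 2 replicate 2 arrays of control vector cells, AGO2 IP at 6.89 and IgG IP at 6.90, were alike. In AGO2 IP its difference with the block was -0.71 ± 0.27, with an unadjusted limma p of 0.0284 and an adjusted p of 1.0; without the pair of doubted arrays it was -0.72 ± 0.35 (limma adjusted p = 0.623). A second probe set of TNFRSF10A, 241371_at, gave -0.33 and -0.64 in AGO2 IP and -0.15 and -0.73 in IgG IP, but 0.04 and 0.06 in the Total RNA pairs. The third, 1552648_a_at, went the other way in AGO2 IP, at 0.35 and 0.03, and gave 0.15 and -0.67 with IgG; its Total RNA pairs gave -0.23 and 0.20. Both lay just below the filter, so the sign is that of the leading probe set and not of the gene.

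TNFRSF10B, which encodes DR5, had 1 of 4 probe sets above control vector cells in all 6 pairs, picked out here after its values were seen. By their leading probe sets, 3.93% of all genes lay above in all 6, which is not a share of single probe sets. A CFLAR probe set below the filter, 210564_x_at, also lay above in all 6. The TNFRSF10B probe set, 210405_x_at, lay above control vector cells by 0.55 and 1.19 in AGO2 IP, 0.71 and 0.76 in IgG IP, and in Total RNA by 0.18 and 0.05. Tested one by one it gave 0.87 ± 0.27 in AGO2 IP with the block, with an unadjusted limma p of 0.00994 and an adjusted p of 1.0; without the pair of doubted arrays it gave 0.67 ± 0.32 (limma adjusted p = 0.539). The leading probe set, 209295_at, gave -0.19 in IgG IP of replicate 1 and lay above in the other 5 pairs, and 209294_x_at lay above in 5 of 6. The remaining probe set, 1556645_s_at, lay below in 4 of 6 pairs, at -0.25 and -0.16 in AGO2 IP, and was below the filter.

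The second CASP8 probe set, 207686_s_at, read 7.90 and 8.16 in AGO2 IP of miR-21 cells against 5.84 and 6.69 in AGO2 IP of control vector cells, a gap of 2.06 and 1.47. Its IgG IP gap was 0.79 and 0.71 and its Total RNA gap -0.19 and 0.20, so miR-21 cells were above in all 4 IP pairs and in 1 of the 2 Total RNA pairs. The fit gave 1.77 ± 0.70 in AGO2 IP with the block, with an unadjusted limma p of 0.0323 and an adjusted p of 1.0. Leaving out the doubted arrays, the fit gave 1.66 ± 0.81 in AGO2 IP (limma adjusted p = 0.55) and -0.15 ± 0.81 in IgG IP. The leading CASP8 probe set showed no such gap in replicate 1.

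FADD read higher in miR-21 cells in IgG IP, by 0.58 and 1.19, and lower in Total RNA, with differences of -0.30 and -0.34. In IgG IP its difference with the block was 0.88 ± 0.35, with an unadjusted limma p of 0.031 and an adjusted p of 1.0. The difference between the construct effects in IgG IP and Total RNA was 1.21 ± 0.49 with the block, with an unadjusted limma p of 0.0358 and an adjusted p of 1.0. The 1.19 rests on the doubted IgG IP array of miR-21 cells, at 9.10, which was near the AGO2 IP array of these cells, at 8.98. When the doubted arrays were left out, these values were 0.62 ± 0.29 in IgG IP (limma adjusted p = 0.983) and 0.95 ± 0.37 for the difference between fractions (limma adjusted p = 1.0). In AGO2 IP the 2 replicates of FADD went apart, at -0.11 and 1.02. CASP9 gave -0.03 and 0.32 in AGO2 IP, and CASP10 gave -0.69 and 0.28.

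In Total RNA, which holds the steady level of each mRNA, the 8 genes differed between miR-21 and control vector cells by -0.32 for FADD to 0.16 for TNFRSF10B with the block. The 95% confidence interval was -0.99 to 1.02 for FAS, -1.86 to 2.15 for CASP8 and -0.66 to 0.61 for CFLAR. These intervals use the spread of all 12 arrays, IPs included, and are wider than the gap between Total RNA arrays alone, which was at most 0.34 for any of the 8 leading probe sets. For no member did the fraction differences pass the test of a difference between constructs: the 3 interaction terms called 0% of genes by limma, with the block and without, with 60, 39 and 23 genes at an unadjusted p under 0.05 with the block and 0 in each without it.

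**Figure D4:**
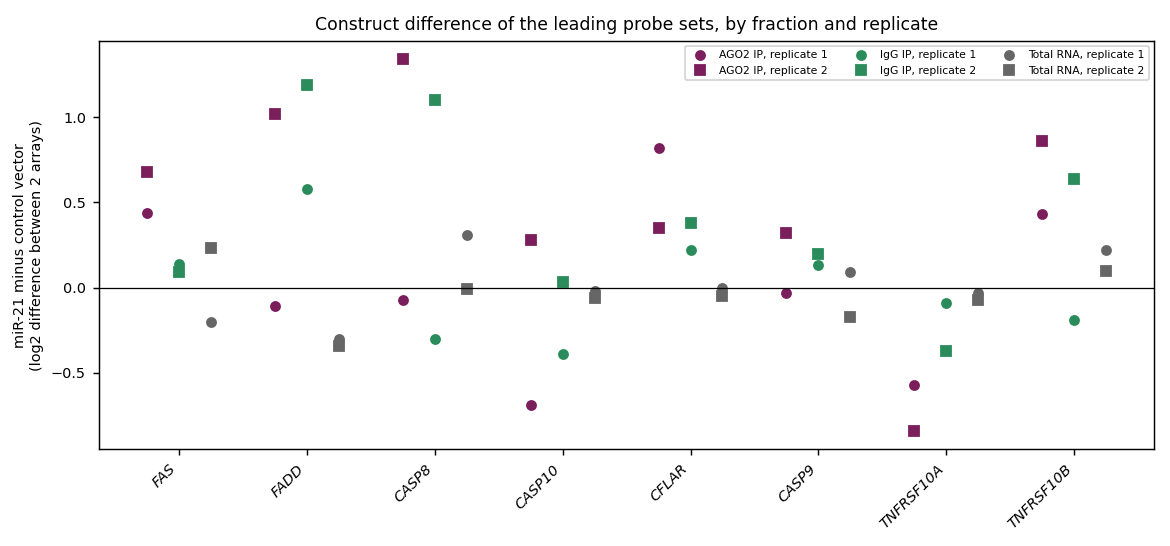
Differences of miR-21 minus control vector cells (log2) for the leading probe set of each gene, in AGO2 IP (purple), IgG IP (green) and Total RNA (grey), circles for replicate 1 and squares for replicate 2. The Total RNA points lie within 0.34 of 0. The IP points of every gene except CASP9 reach farther, with the widest spread for CASP8 and FADD.

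Of 70 other genes of the pathway, in 5 lists chosen with earlier results of these data known, 64 were named on the arrays, 56 were tested and 6 were not analysed here. In AGO2 IP against Total RNA with the block, 2 of the 56 were higher and 9 lower, with a median of -0.09, where 4.71% of all genes were called higher and 11.3% lower. Without the block 0 of the 56 were higher and 0 lower. For these genes no fit with arrays left out is given. Among 8 tested death ligands and other receptors, TNFRSF21 (DR6) was higher at 0.87 ± 0.19 (limma adjusted p = 0.0221), and the list had a median of 0.52. Among 23 tested adaptors, kinases and ubiquitin enzymes, TRAF3, an adaptor of TNF family receptors, was lower at -1.61 ± 0.26 (limma adjusted p = 0.0128), and the median was -0.20. A second TRAF3 probe set, 208315_x_at, gave 0.00, and a second one of TNFRSF21 gave 0.27.

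The mitochondrial route and the caspase inhibitors held 5 of the genes that were lower, beside the 11.3% of all genes called lower. Of 11 tested, with a median of -0.66, the 5 were BIRC6 at -1.34, APAF1 at -0.95, XAF1 at -0.87, BIRC5 at -0.82 and ENDOG at -0.76, with limma adjusted p between 0.0295 and 0.0426. APAF1 is the scaffold on which caspase-9 is activated, BIRC6 and BIRC5 belong to the inhibitor of apoptosis family, and ENDOG is a mitochondrial nuclease. The second BIRC6 probe set gave -1.17, and the other 3 of BIRC5 gave -0.56, -1.25 and 0.25. The other probe sets of APAF1 gave 0.14 and 0.27, the last of them below the filter, and those of XAF1 gave -0.31 and, below the filter, -0.10. Of 11 tested caspase substrates, with a median of -0.69, LMNB1 (lamin B1) was higher at 2.05 ± 0.36 (limma adjusted p = 0.0153), and SPTAN1 (spectrin) at -1.95, DFFA (the inhibitor of the DNA-cutting caspase-activated nuclease) at -1.20 and STK4 (a kinase cut by caspases) at -1.08 were lower. The other probe sets of SPTAN1 gave -1.35, -0.60, -0.62 and, below the filter, 0.31, and those of DFFA gave 0.03 and -0.82. The 3 other probe sets of STK4 at or above the filter gave -1.22, -0.93 and -0.44. The 3 tested other caspases were not called.

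In IgG IP against Total RNA, 1 of these 56 genes was higher and 1 lower with the block, where 0.296% of all genes were called higher and 1.62% lower. Without the block 0 were higher and 0 lower. LMNB1 was higher at 2.02 (limma adjusted p = 0.0298) and TRAF3 lower at -1.42 (limma adjusted p = 0.0325), each close to its value in AGO2 IP. Other genes called in AGO2 IP stood at like values in IgG IP without being called there: SPTAN1 at -1.96, APAF1 at -0.84, STK4 at -0.86, XAF1 at -0.70 and TNFRSF21 at 0.71. BIRC6 at -0.94, DFFA at -0.78, ENDOG at -0.46 and BIRC5 at -0.41 stood nearer to 0 there than in AGO2 IP. In replicate 2, however, AGO2 IP lay above IgG IP with both constructs for BIRC6 and DFFA. ENDOG lay above with the control vector and below with miR-21, and BIRC5 below with both. In replicate 1 BIRC6 read 4.93 in AGO2 IP of control vector cells and 6.2 in that of miR-21 cells. The second BIRC6 probe set gave -1.17 in AGO2 IP and -1.13 in IgG IP. In AGO2 IP against IgG IP none was called. CASP8 differed from the Total RNA arrays, which the 2 comparisons share, by 2.40 in AGO2 IP and by 0.59 in IgG IP, the second value being a mean of -0.19 in replicate 1 and 1.37 in replicate 2.

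Across the 12 arrays, with each replicate's mean taken off, FAS varied most like FBXO3 (Pearson r = 0.994) and DPH5 (0.993), CASP8 most like IDH1 and GSKIP (both 0.996), and CFLAR most like ZNF829 and ZNF606 (both 0.983). CASP9 varied most like RPL18 (0.986) and EIF6 (0.984), TNFRSF10B like CLP1 (0.987) and PLPP1 (0.981), and FADD like STARD3 (0.961) and RGMA (0.956). CASP10 and TNFRSF10A had no partner as near: CASP10 had its highest r with PLEC (0.817) and GUSBP11 (0.791), and TNFRSF10A with HSCB (0.874) and LETM2 (0.86). Among the members, the highest r was 0.912 between FAS and CASP8, then 0.911 between FAS and CFLAR, 0.838 between CASP8 and CFLAR and 0.807 between CASP8 and TNFRSF10B. The lowest was -0.706 between FAS and CASP9, then -0.65 between CASP10 and CFLAR and -0.539 between CFLAR and CASP9. All r are descriptions over 12 arrays that share fractions and replicates, and the partners outside the members were chosen as the highest of 12824 genes.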

How the data were processed

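The deposited values are log2 values that the authors made with RMA, per the submitters' processing notes. Its version, its settings and any joint normalization of the 12 arrays stay unknown (not given in the sources used here). Each array had 54675 probe sets, 62 of them controls; 41091 carried 1 gene symbol and 1801 several in the platform annotation, and only the first kind was used. The members and lists were chosen with earlier results of these data known. Named genes were the 8 members, the list genes called with the block (up to 6 a list in AGO2 IP against Total RNA, up to 4 in IgG IP against Total RNA) and the 2 genes most alike to each member.

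Genes were tested with limma 3.58.1 (R 4.3.3; lmFit, eBayes) on 6 group means over 12 arrays, with Benjamini-Hochberg adjustment over 12824 genes. The planned fit had no replicate block. Because same-numbered arrays deviated together in all 15 group pairs (median r = 0.601), the fit with the block is given beside it, as are fits within each replicate. The number of arrays limits the precision. The script was tested on simulated data. Alternatives were other normalizations, no filter, the mean of all probe sets, and leaving out arrays. Sequences were from RefSeq (GRCh38.p14).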

Additional observations from a re-analysis of the deposited data

How the results depend on the processing

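Without the replicate block, 0 members were called in all 10 comparisons, also with each array left out in turn. In AGO2 IP against Total RNA, 3 members were called with the replicate block (2051 genes), and likewise 3 with each array also centred on its median (1718 genes), with quantile normalization (1726), without the pair of doubted arrays (2809) and, in a fit chosen after seeing the data, with probe sets tested one by one (3191 probe sets); these were FAS, CASP8 and CFLAR each time. With probe sets one by one and without the doubted pair, also added after seeing the data, it was 2 (FAS and CASP8; 4591 probe sets), and in AGO2 IP against IgG IP 1 (CASP8; 1020 probe sets). It was 2 with the block and no filter (FAS and CFLAR; 1856 genes; CASP8 had a limma adjusted p of 0.0505) and 2 with the mean of all probe sets (FAS and CASP8; 1580 genes). It was 4 within replicate 1 (4655 genes) and 4 within replicate 2 (4509 genes), and 0 to 3 with the block and 1 array left out, where a lone array is assumed to vary like the other groups. In AGO2 IP against IgG IP, 2 members were called within replicate 1 (FAS and CASP8, 3080 genes). CASP8 was also called without the pair of doubted arrays, by gene and by probe set. That pair was picked from the likeness of these IPs, so these calls are no independent test. In the rest 0 were called. In IgG IP against Total RNA, 2 were called within replicate 2 (FAS and CASP8; 4013 genes) and 0 in the rest, where all genes called were 246 with the block and 51 without the doubted arrays. In AGO2 IP against Total RNA, centring arrays on their medians put the median over all genes at 0.14, against -0.05 as deposited; higher calls made up 59.2% of calls, against 29.4%, and FAS, CASP8 and CFLAR stood at 1.76, 2.60 and 0.98. The replicate block changed no other call of the members. No called value of a leading probe set changed sign.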
